A study of Mus musculus with 11 samples.

Results

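The superoxide dismutases Sod1, Sod2 and Sod3, the copper chaperone Ccs and catalase (Cat) were followed in the aorta of old mice with and without sodium nitrate. The members were all probes whose gene name in the array files is one of these 5 symbols. This gave 6 probes for 5 genes, 1 each for Sod1, Sod2, Sod3 and Ccs and 2 for Cat, out of 55681 probes and 36413 gene names on the array. All 6 were among the 23632 probes that passed the detection rule, and each was well above background on all 11 arrays.

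Superoxide is formed in the vessel wall by oxidases, by mitochondria and by other enzymes, and it reacts rapidly with nitric oxide. Superoxide dismutases turn it into hydrogen peroxide and oxygen: Sod1, a copper and zinc enzyme, mainly in the cytosol, Sod2, a manganese enzyme, in mitochondria, and Sod3, a secreted copper and zinc enzyme that is abundant in arteries, in the extracellular matrix. Ccs hands copper to Sod1, and catalase, a peroxisomal heme enzyme, splits hydrogen peroxide into water and oxygen.

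RNA came from the descending aorta of male C57BL/6 mice aged 20 months, which was flushed and cleaned of the surrounding fat before freezing. In the nitrate group (5 arrays) the drinking water held 1 g/L NaNO3 for 8 weeks. The 6 control arrays carry the agent label "control". Their labels describe them as a re-analysis of earlier samples and name no sodium chloride. The paper gives sodium chloride at an equal concentration as the control treatment, and the protocol text of both groups is the same. Whether the nitrate group was collected and prepared together with these earlier samples is not known here, so sample origin and treatment cannot be told apart. One-color Agilent arrays were used, 1 for each mouse. The measurement is the brightness of a spot of probe DNA after hybridization, and all values are log2 signals after quantile normalization unless stated otherwise. A level of one probe is not comparable with that of another. Since a whole vessel holds several cell types, fewer cells of a type and less RNA per cell cannot be told apart.

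All 8 smooth muscle markers and all 8 endothelial markers on the list passed the detection rule. All 17 adipocyte markers, 8 of 8 brown adipocyte markers, 11 of 14 striated muscle markers and 6 of 9 erythroid markers passed as well. The arrays lay on 3 slides, each holding both groups, and the 75th percentile of the signal before normalization ranged from 213 to 289. All 6 controls lay in 1 column of their slides that held no nitrate array, so position on the slide and treatment cannot be told apart. The array of control 1 had the highest adipocyte and the lowest smooth muscle marker mean and lay apart from the other controls for several values below, and the members' differences and correlations in which it lay apart are given with and without it. The nearest genes of each member were not sought without it.

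Among the superoxide dismutases, Sod1 was lower and Sod3 higher in nitrate treated mice, each by 1.19-fold, at the unadjusted P value under 0.05 that the study used. Sod2, Ccs and both Cat probes did not pass. So 2 of the 5 genes were called, against 14.4% of all 23632 probes tested, of which 7.71% were higher and 6.66% lower with nitrate. Neither called gene exceeded the fold change of 1.2 that the study also used, which 9% of all probes did together with the P value, and of the 6 probes only the dimmer Cat probe, which was not called, did (1.24-fold, and 1.14-fold without control 1). No member's groups were free of overlap, against 2.75% of all probes. After Benjamini-Hochberg adjustment no member passed, and 3 of all probes did (0.0127%). The study had itself listed Sod1 and Sod3 from these samples together with a further nitrate array that was not analysed here, so their direction here is not independent evidence. The median difference over all tested probes was 0.01.

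**Figure D1:**
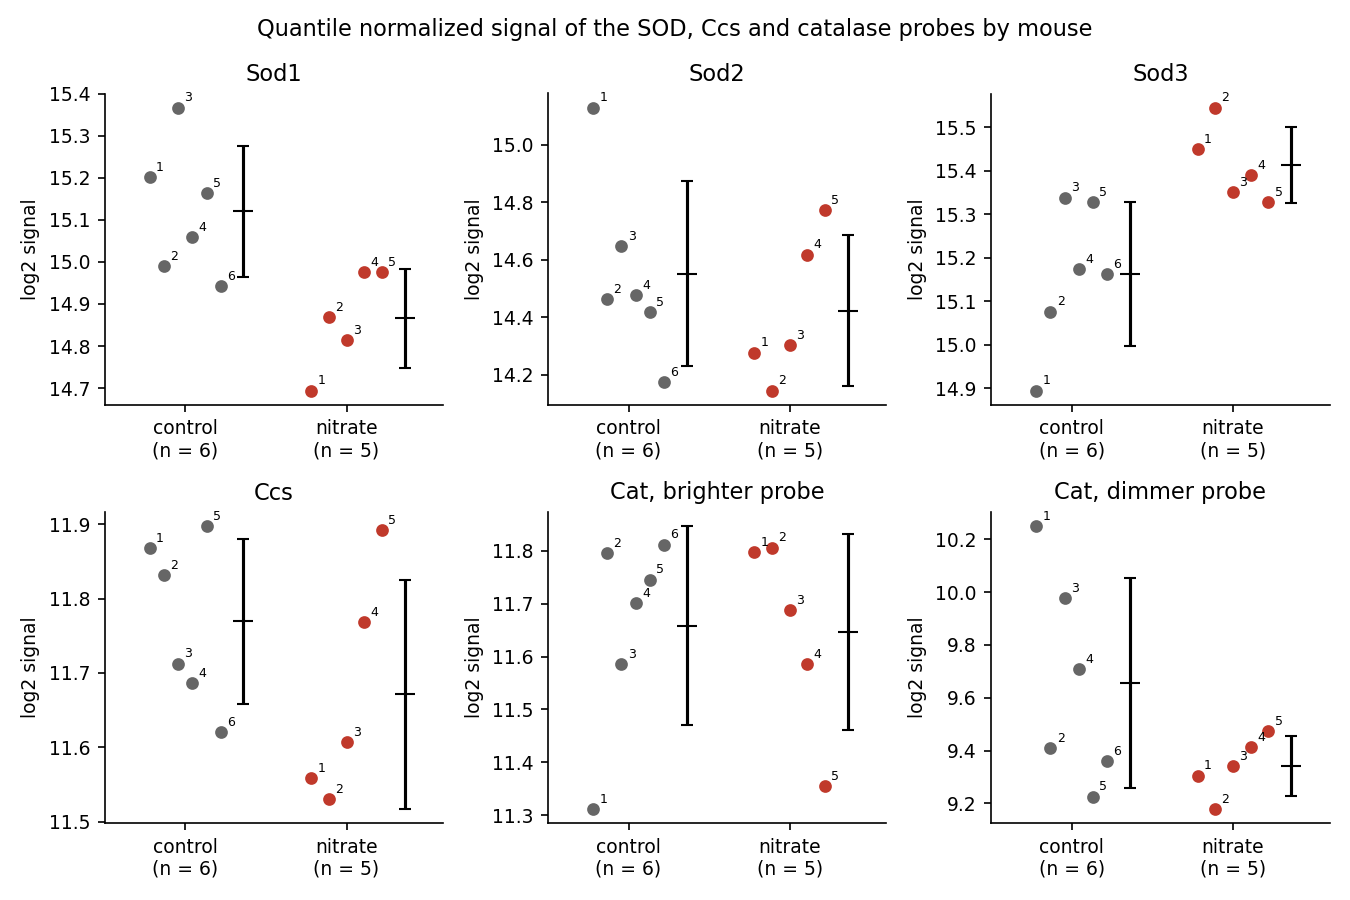
Log2 signal of each probe (vertical axes, quantile normalized, 1 scale per panel) in 6 control mice (gray) and 5 nitrate treated mice (red), with the replicate number beside each point and the mean ± SD as a bar. Sod1 lies lower and Sod3 higher in most nitrate treated mice, control 1 is the highest point for Sod2 and for the dimmer Cat probe, and it is the lowest for Sod3 and the brighter Cat probe.

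Sod1 was read by a probe at chr16:90226509-90226568 of mm9, on the plus strand. Its last 30 bases are shown because they hold ATTAAA (capitals), a known variant of the AATAAA signal that precedes the poly(A) tail of messenger RNAs. ATTAAA is present in 3.95% and AATAAA in 10.1% of all probes on the array, read on the strand of the probe.
Sod1: ctaccctcaaaccATTAAActgtaatctga
The log2 signal of Sod1 in nitrate treated mice 1 to 5 was 14.69, 14.87, 14.81, 14.98 and 14.98. In controls the lowest value was 14.94, the median 15.11 and the highest 15.37. Of the nitrate treated mice, 5 of 5 lay below the control median and 3 of 5 below every control, while 5 of 6 controls lay above every nitrate treated mouse. Sod1 thus fell by 0.25 log2 units (SE 0.0882, 95% interval -0.45 to -0.06, limma P = 0.0138, adjusted P = 0.260, exact permutation test, two-sided, p = 0.0173). Within slides 1, 2 and 3 the difference was -0.31, -0.19 and -0.29. The sign was the same on the 3 slides, with 2 arrays of each group on slides 1 and 3 and 1 nitrate array against 2 controls on slide 2. With the adipocyte marker mean as a covariate, described below, Sod1 was no longer called (-0.03, limma's adjusted P = 0.938).

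Sod3 was read by a probe at chr5:52760685-52760744 on the plus strand, which likewise contains ATTAAA (capitals).
Sod3: tttatgttgctcATTAAAaacatagcaatt
Its log2 signal in nitrate treated mice 1 to 5 was 15.45, 15.55, 15.35, 15.39 and 15.33. In controls it was 14.89 at the lowest, 15.17 at the median and 15.34 at the highest. All 5 nitrate treated mice lay above the control median and 4 of 5 above every control. The nitrate group had less spread (SD 0.09, n = 5) than the controls (SD 0.17, n = 6). Sod3 rose by 0.25 log2 units (SE 0.0865, 95% interval 0.06 to 0.44, limma P = 0.0136, adjusted P = 0.260, exact permutation test, two-sided, p = 0.0152). The 3 slides were unequal: within them the difference was 0.51, 0.18 and 0.03. Slide 1 held control 1, which had the lowest Sod3 signal. Without that array the Sod3 difference was smaller, as the lowest of the values obtained by leaving out 1 array at a time, at 0.20 (limma's adjusted P = 0.329), and the unadjusted P value was still under 0.05. With the adipocyte marker mean as a covariate, described below, Sod3 was no longer called (0.15, limma's adjusted P = 0.724).

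Sod2, at chr17:13208074-13208133 on the plus strand, was the superoxide dismutase with the most variation between mice. In nitrate treated mice 1 to 5 the log2 signal was 14.28, 14.14, 14.30, 14.62 and 14.77. In controls it ranged from 14.18 through a median of 14.47 to 15.13, the last in control 1. The groups overlapped broadly. The difference was -0.13 (SE 0.163, 95% interval -0.48 to 0.23, limma P = 0.447, exact permutation test, two-sided, p = 0.504), and the interval held a fall of the size seen for Sod1. Without control 1 it was -0.01 (95% interval -0.30 to 0.27), and a fall or a rise of the size seen for Sod1 and Sod3 lay within that interval. Within slides the values were -0.58, -0.02 and 0.16, and they differed in sign.

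Ccs, at chr19:4825375-4825434 on the minus strand, also has ATTAAA in its probe.
Ccs: tgtagcctgaacaaATTAAAttgttacttt
The log2 signal was 11.56, 11.53, 11.61, 11.77 and 11.89 in nitrate treated mice 1 to 5. The lowest control was at 11.62, the median at 11.77 and the highest at 11.90. The 3 lowest nitrate values lay below every control and the other two among the controls. The difference of -0.10 (SE 0.0845, 95% interval -0.28 to 0.09) did not pass (limma P = 0.269, exact permutation test, two-sided, p = 0.247). Within slides it was -0.30, -0.05 and 0.03.

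**Figure D2:**
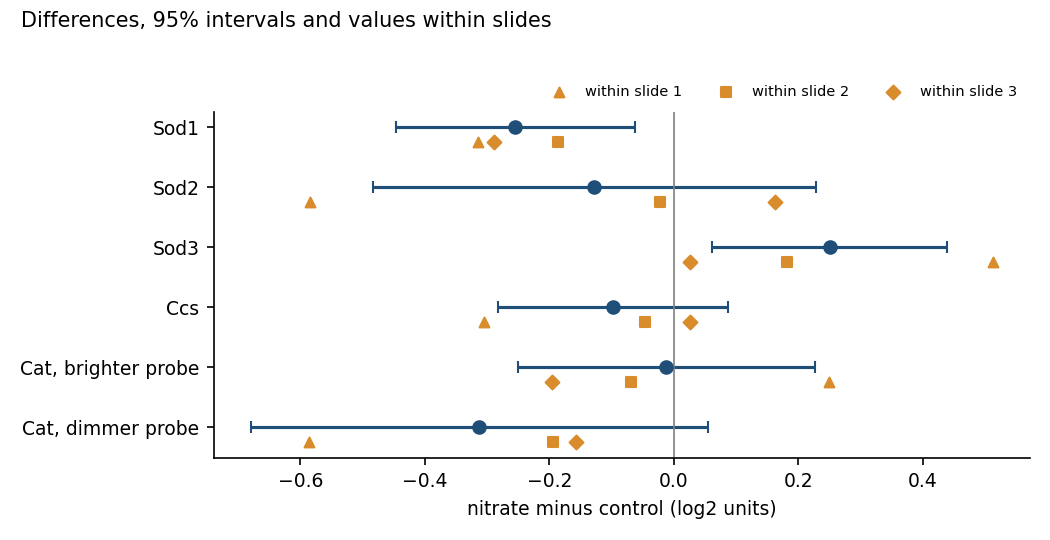
Nitrate minus control in log2 units (horizontal axis) for the 6 probes, with the limma estimate over 11 arrays as a circle, its 95% interval as a line, and the difference within each slide as a triangle, square or diamond. The interval lies below 0 for Sod1 and above 0 for Sod3 and spans 0 for the other 4 probes. Slide 1, which holds control 1, gave the value farthest from 0 for every probe.

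Cat had 2 probes, and they did not give the same picture. The probe with the higher mean signal, which stands for the gene in the tests, lies at chr2:103294487-103294546 on the minus strand. The dimmer probe spans chr2:103297086-103300428, an interval of 3343 bases for a probe of 60 bases, so it crosses an exon junction. The brighter probe lies 2539 bases further downstream. The bases of both are shown because they differ in kind: the brighter probe holds an unbroken run of 16 bases of alternating C and A (capitals), and the dimmer one, printed whole, has no such run.
Cat, brighter probe: cacatacCACACACACACACACAtgcaata
Cat, dimmer probe: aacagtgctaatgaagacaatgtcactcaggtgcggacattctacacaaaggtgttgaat
A run of at least 10 such bases, CACACACACA on the strand of the probe, occurs in 90 of the 55681 probes (0.162%).

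On the brighter Cat probe the log2 signal was 11.80, 11.81, 11.69, 11.59 and 11.36 in nitrate treated mice 1 to 5, and 11.31, 11.72 and 11.81 at the lowest, median and highest control. The groups covered the same range. The difference was -0.01 (SE 0.110, 95% interval -0.25 to 0.23, limma P = 0.914, exact permutation test, two-sided, p = 0.890). On the dimmer Cat probe the nitrate values were 9.30, 9.18, 9.34, 9.41 and 9.47, and the controls had 9.23, 9.56 and 10.25. All 5 nitrate treated mice lay below the control median and 3 of 6 controls above every nitrate treated mouse. The controls spread more widely (SD 0.40, n = 6) than the nitrate group (SD 0.11, n = 5). The difference was -0.31 (SE 0.168, 95% interval -0.68 to 0.05) and did not pass (limma P = 0.0879, exact permutation test, two-sided, p = 0.141). Without control 1 the difference on the dimmer probe was -0.19 (95% interval -0.49 to 0.10) and on the brighter one -0.08 (95% interval -0.29 to 0.12). Within slides it was -0.59, -0.19 and -0.16 on the dimmer probe and 0.25, -0.07 and -0.20 on the brighter one. With the mean of both probes in place of the brighter one, the Cat difference was -0.16 (limma's adjusted P = 0.322) with an unadjusted P value under 0.05, so the call for Cat depended on how its probes were combined.

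The 2 Cat probes varied in opposite directions from mouse to mouse. After the group means had been removed, their Pearson r over 11 arrays was -0.81 and Spearman's rho -0.85 (exact permutation within groups, p = 0.000266 and p = 0.000509, adjusted over 7 relations of the dimmer probe 0.00186 and 0.00178). It was -0.74 without the 2 arrays farthest from the median, and without control 1 it was -0.64 (exact permutation, p = 0.00229). This relation was looked at after the values had been seen. Sod2 went with the dimmer Cat probe (r = 0.82, rho = 0.85, exact permutation, p = 0.000613 and p = 0.000475, adjusted 0.00215 and 0.00178) and against the brighter one. With the dimmer probe r was 0.66 without the 2 farthest arrays and 0.64 without control 1 (exact permutation, p = 0.0130). For Sod2 and the brighter Cat probe r was -0.96 and rho -0.94 (exact permutation, p = 5.79e-05 and p = 0.000382). These values, adjusted over a family of 20 relations, were 0.00116 and 0.00764. Without the 2 farthest arrays r was -0.88, and without control 1 it was -0.92 (exact permutation, p = 0.000347). No correlation was computed within slides, which hold 4, 3 and 4 arrays, and the permutations exchanged arrays between slides. Nitrate treated mice 4 and 5, both on slide 3, lay above their group mean for Sod2, Ccs and the dimmer Cat probe. For the brighter Cat probe they lay below it. Mice 1 to 3, on slides 1 and 2, lay on the other side each time. These p values therefore do not separate variation between mice from differences between slides.

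**Figure D3:**
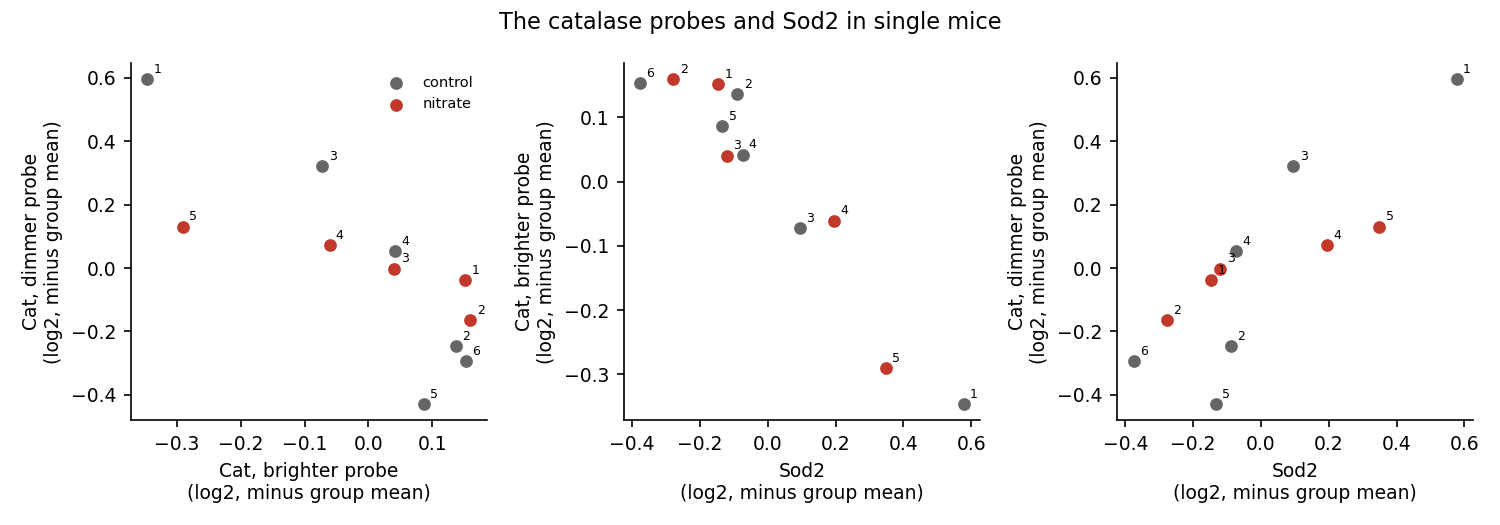
Log2 signals minus the group mean for single mice, controls in gray and nitrate treated mice in red with replicate numbers: the dimmer against the brighter Cat probe, the brighter Cat probe against Sod2, and the dimmer Cat probe against Sod2. The first 2 panels fall (r = -0.81 and -0.96) and the last rises (r = 0.82), with control 1 at the end of each.

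The probes elsewhere on the array that hold CACACACACA varied with the brighter Cat probe. For the 73 other tested probes with this run the median r with it over the 11 group-centred arrays was 0.50 (quartiles 0.34 and 0.59), against 0.08 (quartiles -0.31 and 0.41) for the 23543 tested probes without it. An r above 0.5 was found in 52.1% and 17.9% of them. With the dimmer Cat probe the medians were -0.36 and -0.06. Without control 1 the medians were 0.84 and 0.00 with the brighter Cat probe and -0.65 and 0.03 with the dimmer one. These are correlations across arrays described over probes, which share the arrays and are not independent, and no test was made. Whether the signal of the brighter probe comes from catalase RNA was not tested.

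Within groups, 7 of the 20 relations among the 5 genes and the means of the adipocyte and smooth muscle marker lists had an adjusted exact permutation p under 0.05 for Pearson's r, and 6 for Spearman's rho. Between genes, by r, these were Sod2 with Cat, given above, and Sod2 with Ccs (r = 0.71, rho = 0.75, exact permutation, p = 0.0166 and p = 0.0184, adjusted 0.0473 and 0.0503). For Sod2 and Ccs r was 0.58 without the 2 farthest arrays and 0.77 without control 1. Nitrate treated mice 4 and 5, both on slide 3, held the highest nitrate values of both genes, and slide differences were not removed from this r. By rho, Sod1 with the brighter Cat probe was under 0.05 (r = -0.66, rho = -0.75, exact permutation, p = 0.0399 and p = 0.0143, adjusted 0.0799 and 0.0476) and Sod2 with Ccs was not. For Sod1 and Cat r was -0.72 without the 2 farthest arrays and -0.72 without control 1. Sod1 and Sod3, which differed between the groups in opposite directions, had no detectable relation between mice of one group (r = 0.14, rho = 0.07, exact permutation, p = 0.726 and p = 0.851), and r was 0.43 without control 1. Without control 1, 2 of the 20 relations had an adjusted p of r under 0.05, Sod2 with Cat and Sod1 with the adipocyte marker mean, and without control 3 there were 15.

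Markers of other cell types moved with some of these genes. The adipocyte list was lower with nitrate: 10 of 17 markers were called, 10 of them lower and 0 higher, with a median difference of -0.36, beside 14.4% called and 6.66% lower among all probes. Without control 1 it was 9 of 17, all lower, beside 12.04% of all probes called in that fit. In the other marker lists, 2 of 8 brown adipocyte markers were called, 1 in each direction (median 0.12), 2 of 8 smooth muscle markers and 2 of 6 fibroblast markers, all higher (medians 0.11 and 0.16), 1 of 8 endothelial markers, higher (median 0.00), and 0 of 8 macrophage, 0 of 11 striated muscle and 0 of 6 erythroid markers at an unadjusted limma P under 0.05 (medians 0.10, 0.54 and -0.44). The mean was higher with nitrate for 7 of 8 smooth muscle, 6 of 6 fibroblast and 8 of 8 macrophage markers. Without control 1, again beside 12.04% of all probes, 3 brown adipocyte markers were called, 2 of them higher (median 0.11). In the same fit 3 smooth muscle markers were called, 2 of them higher (median 0.09), and 1 fibroblast marker, higher (median 0.14). For striated muscle 2 were called, both higher (median 1.105). Nitrate treated mouse 4, which stays in that fit, had the highest striated muscle marker mean of the 11 arrays. The summed adipocyte signal lay between 442436 and 594366 in nitrate treated mice, median 532629, and between 553582 and 738875 in controls, median 612533. The defining markers Adipoq and Plin1 were well above background on all 11 arrays. Within groups Sod1 varied with the adipocyte marker mean (r = 0.82, rho = 0.82, exact permutation, p = 0.00543 and p = 0.00573, adjusted 0.0181 and 0.0286, r = 0.73 without the 2 farthest arrays). Without control 1 this r was 0.87 (exact permutation, p = 0.00444, adjusted 0.0444). Sod2 varied with it too (r = 0.83, rho = 0.87, exact permutation, p = 0.00184 and p = 0.000961, adjusted 0.0177 and 0.00810), and so did the dimmer Cat probe (r = 0.83, rho = 0.91, exact permutation, p = 0.00306 and p = 0.000845, adjusted 0.00713 and 0.00197). The brighter Cat probe varied against it (r = -0.79, rho = -0.87, exact permutation, p = 0.00443 and p = 0.00122, adjusted 0.0177 and 0.00810). Without the 2 farthest arrays these 3 values of r were 0.83, 0.63 and -0.90, and without control 1 they were 0.73, 0.74 and -0.68. For Sod3 r was -0.36 and for Ccs 0.44, neither with an adjusted exact permutation p under 0.05. Without control 1 they were 0.08 and 0.36, so the sign for Sod3 turned.

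The smooth muscle marker mean had the opposite relation, against Sod2 (r = -0.90, rho = -0.77, exact permutation, p = 0.00321 and p = 0.0133, adjusted 0.0177 and 0.0476) and with the brighter Cat probe (r = 0.86, rho = 0.61, exact permutation, p = 0.00427 and p = 0.0690, adjusted 0.0177 and 0.115). Both were weaker without the 2 farthest arrays, at -0.66 and 0.53. Without control 1 they were -0.78 and 0.73 (exact permutation, adjusted p = 0.0891 and p = 0.105), no longer under 0.05 after adjustment. The dimmer Cat probe also varied against the smooth muscle mean (r = -0.76, rho = -0.65, exact permutation, p = 0.00839 and p = 0.0345, adjusted over the 7 relations of that probe 0.0147 and 0.0568), and r was -0.43 without the 2 farthest arrays and -0.45 without control 1 (exact permutation, p = 0.0991). For Sod3 r was 0.73 and rho 0.62 (exact permutation, p = 0.0283 and p = 0.0523, adjusted 0.0707 and 0.0952), and r was 0.49 without the 2 farthest arrays and 0.34 without control 1. The summed signal of the 8 smooth muscle markers was 676413 to 709273 in nitrate treated mice and 539028 to 706021 in controls, and control 1 had the lowest value.

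The means of the other 6 marker lists were set against the 6 probes after the values had been seen, a family of 36 relations. By Pearson's r 2 of them had an adjusted p under 0.05, both with the brown adipocyte markers. Sod2 varied with their mean (r = 0.91, rho = 0.77, exact permutation, p = 0.00118 and p = 0.0133, adjusted 0.0317 and 0.447), and the brighter Cat probe against it (r = -0.90, rho = -0.69, exact permutation, p = 0.00176 and p = 0.0332, adjusted 0.0317 and 0.447). Without the 2 farthest arrays r was 0.71 and -0.62, and without control 1, which was high for these markers, it was 0.83 and -0.82 (exact permutation, adjusted p = 0.308 and p = 0.448), neither under 0.05. The part of any of these markers in the members' values was not tested beyond the fit that follows.

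With the adipocyte marker mean as a covariate, the nitrate difference was -0.03 for Sod1 (SE 0.0928, limma's adjusted P = 0.938) and 0.15 for Sod3 (SE 0.123, limma's adjusted P = 0.724), and neither was called. For Sod2 it was 0.35 (limma's adjusted P = 0.541), for Ccs 0.02, for the brighter Cat probe -0.30 (limma's adjusted P = 0.505) and for the dimmer one 0.19 (limma's adjusted P = 0.735). Of these, Sod2 and the brighter Cat probe had an unadjusted P value under 0.05. The signs for Sod2, Ccs and the dimmer Cat probe were thereby turned. The covariate itself had a correlation of -0.73 with treatment over the 11 arrays, so the fit separates treatment and markers only in part, and the part of adipocyte RNA in the Sod1 and Sod3 differences was not tested beyond it.

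**Figure D4:**
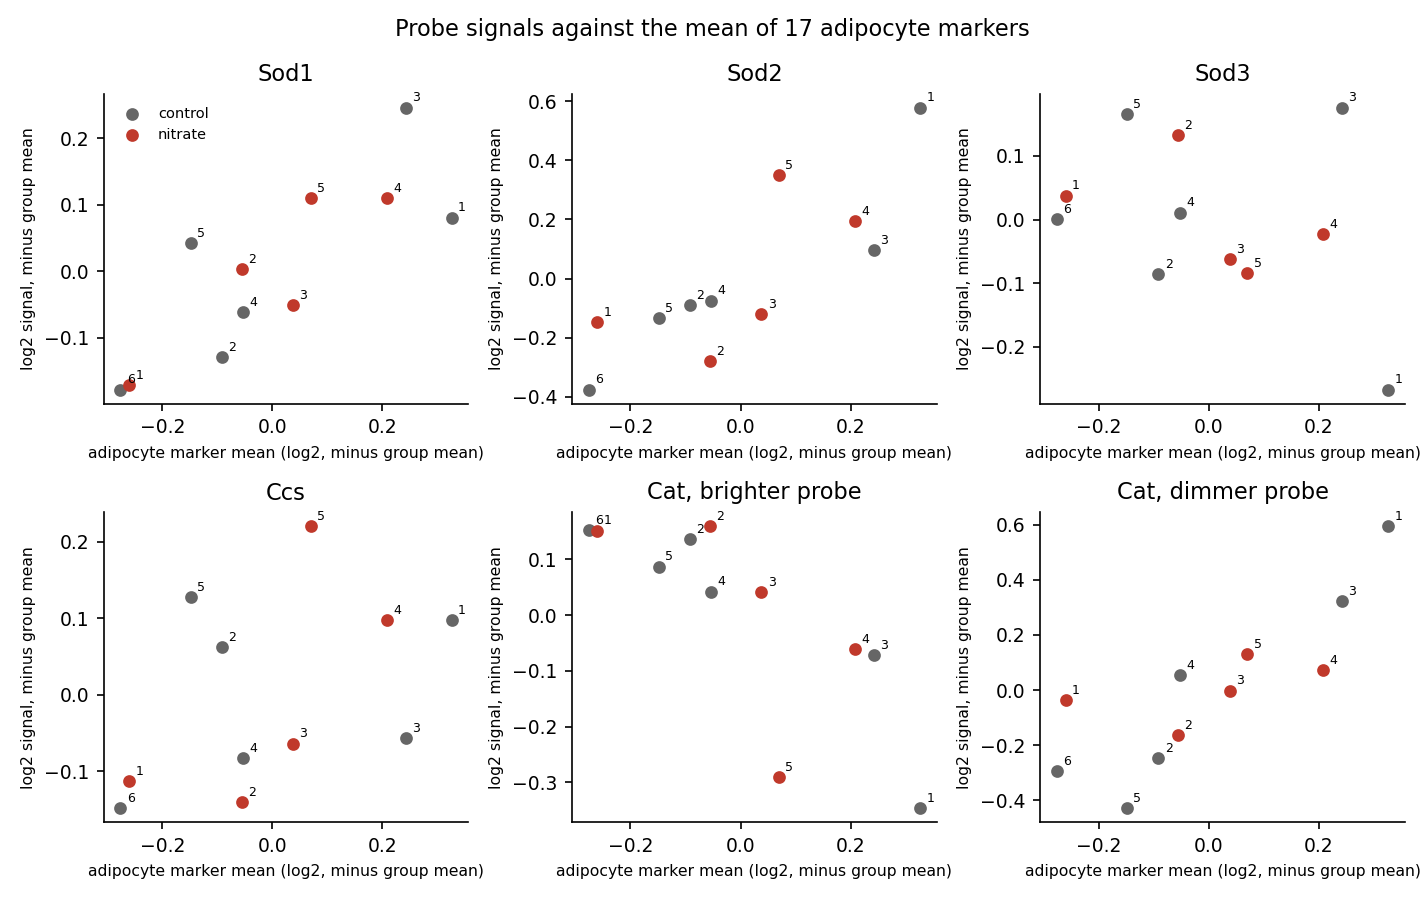
Log2 signal of each probe minus its group mean (vertical axes) against the mean of 17 adipocyte markers minus its group mean (horizontal axes), controls in gray and nitrate treated mice in red with replicate numbers. Sod1, Sod2 and the dimmer Cat probe rise along the axis (r = 0.82, 0.83 and 0.83), the brighter Cat probe falls (r = -0.79), and for Sod3 r is -0.36.

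The genes most like each member in their pattern over the 11 group-centred arrays were found among about 15470 detected probes of named genes. For Sod1 these were Ddx27 (r = 0.97), Ormdl2 (0.96) and Acp5 (0.96). For Sod2 they were Chchd3, Impa2 and Crls1 (0.99 each). Chchd3 and Crls1 encode mitochondrial proteins, the latter cardiolipin synthase. For Sod3 they were Wdr46 (0.98), Ereg (0.97), which encodes the growth factor epiregulin, and Htra1 (0.96), a secreted protease. Tspan3 (0.95), Lekr1 (0.94) and BC062258 (0.93) were nearest to Ccs. Pdcl3 (0.97), Gstm2 (0.97), a glutathione transferase, and Rbms2 (0.96) were nearest to the brighter Cat probe, and 1700037H04Rik, Nfu1 (0.98 each) and Chpt1 (0.97) to the dimmer one. Since the 2 Cat probes varied in opposite directions (r = -0.81), they could not share nearest genes, and the lack of shared genes adds nothing. All these r values are the highest of many and carry no test.

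Of genes that supply superoxide, 13 of 21 listed passed the detection rule and 2 were called, 1 in each direction, with a median difference of -0.07. Nox4, the NADPH oxidase subunit that releases mainly hydrogen peroxide, rose from 13.04 ± 0.26 (SD, n = 6) to 13.37 ± 0.11 (SD, n = 5), with control 1 lowest and apart from the other controls, a difference of 0.33 (exact permutation p = 0.0108, limma's adjusted P = 0.275). Without control 1 the Nox4 difference was 0.23 (limma's adjusted P = 0.274). Nos2, the inducible nitric oxide synthase, fell by 0.32 (exact permutation p = 0.0238, limma's adjusted P = 0.268).

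Of the peroxide-removing enzymes apart from catalase, 21 of 24 listed genes passed the detection rule and 4 were called, 1 higher and 3 lower, with a median of -0.03. Gpx3, the secreted glutathione peroxidase, fell from 13.44 ± 0.12 (SD, n = 6) to 12.84 ± 0.22 (SD, n = 5), by 0.60 (SE 0.102, exact permutation p = 0.00216, limma's adjusted P = 0.0878). Gpx4, which reduces lipid peroxides in membranes, fell by 0.49 (exact permutation p = 0.00433, limma's adjusted P = 0.152). Prdx4, the peroxiredoxin of the secretory pathway, rose by 0.26 (exact permutation p = 0.00216, limma's adjusted P = 0.161). The groups did not overlap for these 3 genes, and 0.00216 is the smallest value the exact test can give. Prdx5, a peroxiredoxin of mitochondria and peroxisomes, for which control 1 lay high above the other controls, fell by 0.29 (exact permutation p = 0.0108, limma's adjusted P = 0.238). Without control 1 it fell by 0.22 (limma's adjusted P = 0.259).

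None of the 18 detected of 23 listed genes of copper handling, the supply line of Sod1, Sod3 and Ccs, was called by limma at an unadjusted P value under 0.05, with a median of -0.05. Atox1, the chaperone that hands copper to the copper ATPases, differed by -0.08 (exact permutation p = 0.602), the ATPase Atp7a by -0.07 (exact permutation p = 0.351) and the copper importer Slc31a1 by -0.14 (exact permutation p = 0.264). Steap2, a metalloreductase, and Sco2, a copper chaperone of cytochrome oxidase, did not pass the detection rule and had an unadjusted P value under 0.05 where all probes were fitted. All 5 were named after their values had been seen.

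Catalase is a peroxisomal enzyme, and 43 of the 56 other peroxisomal genes listed were detected, 54 being on the array. Of these, 37 had a lower mean with nitrate and 6 a higher one, with a median of -0.17 beside 0.01 over all probes, where 46.2% had a lower mean. The number called was 10, 9 of them lower. Pex11a, which takes part in peroxisome division, fell by 0.48 (exact permutation p = 0.0130, limma's adjusted P = 0.260), Pex6, an ATPase of the import machinery, by 0.34 (exact permutation p = 0.0519, limma's adjusted P = 0.298), Gnpat, an enzyme of ether lipid synthesis, by 0.31 (exact permutation p = 0.0260, limma's adjusted P = 0.277), the membrane protein gene Pxmp2 by 0.30 (exact permutation p = 0.00433, limma's adjusted P = 0.233) and Abcd4 by 0.28 (exact permutation p = 0.00866, limma's adjusted P = 0.292). For Abcd4 control 1, and for Pex6 nitrate treated mouse 5, lay high above the rest of its group, and without that array they fell by 0.19 and 0.45 (limma's adjusted P = 0.315 and 0.196). Nox4, Prdx5, Abcd4 and Pex6 were called with and without these arrays. A second Pex6 probe fell by 0.47 (exact permutation p = 0.00216). The count was 4 without nitrate treated mouse 1, 5 without mouse 2, 6 without mouse 3, 6 without mouse 4 and 5 without control 1. These are 9.30%, 11.6%, 14.0%, 14.0% and 11.6% of the list, beside 12.2%, 9.86%, 12.4%, 13.8% and 12.04% of all probes in the same fits, so without nitrate treated mouse 1 or control 1 the called share was below that of all probes. Over the 11 fits that leave out 1 array, 33 to 38 of the 43 genes had a lower mean with nitrate, and the median lay between -0.19 and -0.09.

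Of 16 regulators of these enzymes, 14 were detected and 5 called, 1 higher and 4 lower, with a median of -0.08. Pparg, which is also one of the adipocyte markers, fell by 0.57 (exact permutation p = 0.00216, limma's adjusted P = 0.130) with no overlap between groups. Ppara, the nuclear receptor that drives peroxisomal fatty acid oxidation, fell by 0.45 (exact permutation p = 0.00866, limma's adjusted P = 0.192), and its other two probes fell by 0.43 and 0.39. Nfe2l2, which encodes the oxidant-responsive factor NRF2, rose by 0.28 (exact permutation p = 0.0152, limma's adjusted P = 0.245). Ppargc1b fell by 0.26 (exact permutation p = 0.0303, limma's adjusted P = 0.334). Foxo1 fell by 0.15 (exact permutation p = 0.0216, limma's adjusted P = 0.335), where a second probe differed by -0.05 (exact permutation p = 0.303). The count was 3 without nitrate treated mouse 2, 3 or 4 and 3 without control 6. This is 21.4% of the list, beside 9.86%, 12.4%, 13.8% and 14.8% of all probes in those fits. The called shares were 15.4% for superoxide sources, 19.05% for peroxide removal, 0% for copper handling, 23.3% for the peroxisome and 35.7% for the regulators, beside the 14.4% of all probes. The adipocyte values given above stand beside the falls of Pparg, Ppara and the peroxisomal genes as well, and their part in them was not tested.

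**Figure D5:**
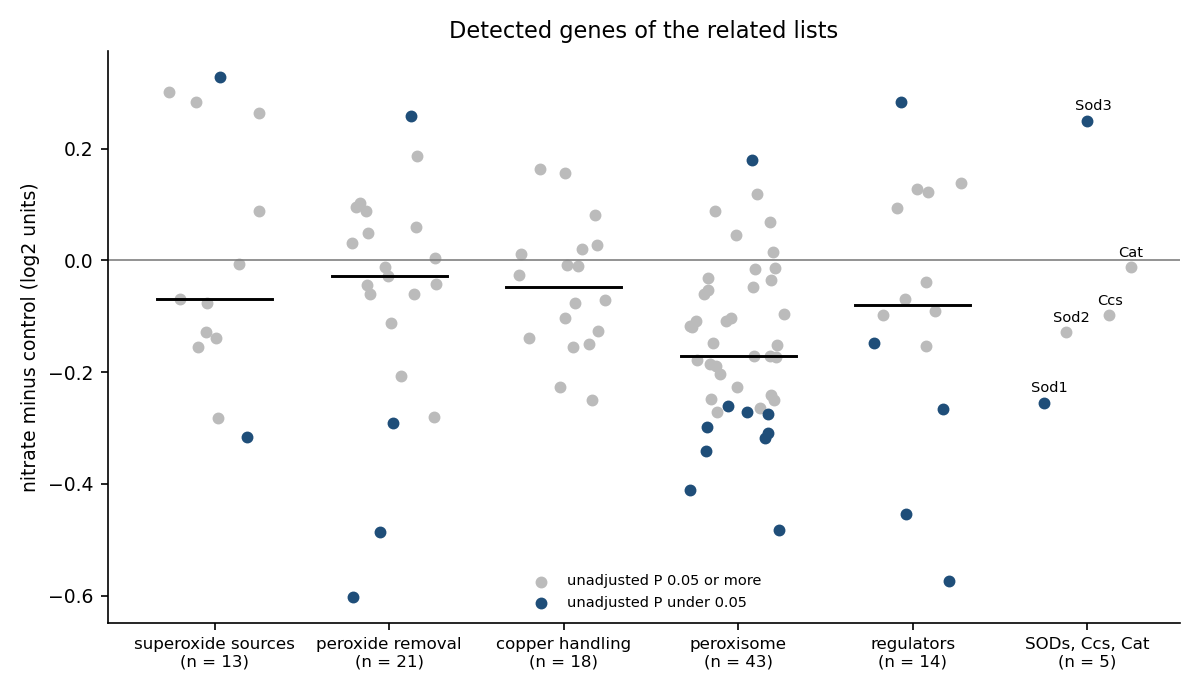
Nitrate minus control in log2 units (vertical axis) for each detected gene of the 5 related lists and for the superoxide dismutases, Ccs and Cat, with a black line at each list's median and blue points for an unadjusted limma P under 0.05. The peroxisome list has the lowest median, -0.17, and Sod3 and Sod1 are the 2 blue points among the 5 members.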

How the data were processed

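RNA of 5 nitrate treated and 6 control aortas was measured on 1 array each. The authors deposited spot intensities written by Feature Extraction 10.7.1.1, background-subtracted and not normalized between arrays, and a table of log2 values, quantile normalized and centred on the median of the arrays. Groups were taken from the labels.

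Processed signals below 1 were set to 1 before log2 values were taken. Neither control spots nor spots flagged as outliers were used, replicate spots of a probe were averaged, and the 11 arrays were then quantile normalized. A probe was tested if, in either group, 5 or more arrays found it well above background. Tests were made with lmFit and eBayes (R 4.3.3, limma 3.58.1) at an unadjusted P value under 0.05, and adjusted by Benjamini-Hochberg over all 23632. A gene was represented by its brightest detected probe. Exact permutation tests of single probes used the 462 ways to divide the mice, with 0.00216 as the smallest p. Those of correlations used all 86400 arrangements within groups, without regard to slide. The number of arrays limits the precision. The labels name the mice as separate, so P values measure the spread between mice.

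The members, the gene lists and the tests were chosen with earlier results of these data known. Genes named were all members with each of their probes, for each member the 3 detected probes of other genes with the highest r with it, and up to 5 called genes of each list with the smallest P value. The relations of the dimmer Cat probe, its nearest genes, the CA run and the copper genes were picked with their values in view. Probe positions and sequences are those of the files, in mm9. Alternatives covered normalization, background correction, the deposited table, detection, flagged spots, prior variance, slide, replicate number, probe choice, the adipocyte covariate and each array left out. The correlations with the other 6 marker means, alternatives for the correlations, and those without control 1 for marker lists and single list genes, were chosen after seeing the data. The fit was tested on simulated data for this comparison over 23632 probes: 56% of changes of 0.25 and 90% of changes of 0.5 log2 units had a P value under 0.05, and 5.09% of unchanged probes did. A further nitrate array and the protein sequences of the members were not analysed here.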

Additional observations from a re-analysis of the deposited data

Results flagged for a closer look

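In 7 of 60 groups of values tested, the highest or lowest mouse lay farther from the others than Dixon's 95% limit, and chance flags about 1 in 20 groups, here 3. The value given is the gap to the nearest other mouse divided by the range of the group. In 6 of the 7 the mouse was control 1. It was high for Prdx5 (0.643), for Abcd4 (0.766), for the brown adipocyte marker mean (0.706) and for the striated muscle marker mean (0.649), and low for Nox4 (0.636) and for the smooth muscle marker mean (0.720). For Pex6 nitrate treated mouse 5 was high (0.806). The striated muscle marker mean of nitrate treated mouse 4 was not flagged, yet it lay above that of control 1. These means were 2.63 and 2.32, in log2 units relative to the mean of the arrays. No value of Sod1, Sod2, Sod3, Ccs or Cat passed the limit.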

How the results depend on the processing

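Sod1 kept its direction in 23 of 23 alternatives and a limma P under 0.05, or an exact permutation p under 0.05, in 22, and Sod3 in 23 and 21. The exceptions were the adipocyte covariate, where the differences were -0.0294 for Sod1 and 0.15 for Sod3, and, for Sod3, the replicate block. Some alternatives left the Sod1 and Sod3 differences unchanged by design, so their direction could not turn. These were the detection settings, the trended prior variance, the mean of all detected probes and the exact permutation test. Under the adipocyte covariate Sod2 was 0.35, Ccs 0.0159 and Cat -0.30, with 0.19 on the dimmer Cat probe. Cat was near 0 and turned sign under normexp background correction (0.00520), slide as a block (0.00270) and the replicate block (0.0186), and the mean of both probes gave -0.16. Leaving out each array in turn gave -0.29 to -0.21 for Sod1, -0.22 to -0.01 for Sod2, 0.20 to 0.29 for Sod3, -0.15 to -0.06 for Ccs, and -0.0813 to 0.0607 for Cat, which was above 0 without nitrate treated mouse 4 or 5 or control 2, 5 or 6. The dimmer Cat probe had -0.19 without control 1, and without control 5 it had -0.40 (limma's adjusted P = 0.299) and an unadjusted P value under 0.05. Called genes numbered 4 to 13 for the peroxisome, 3 to 5 for regulators and 0 to 1 for copper handling. In these fits 2329 to 3504 of all 23632 probes were called. With no detection filter 2 copper genes were called, and 3 regulators with slide as a block. Relations with an adjusted p under 0.05 numbered 2 to 15 when 1 array was left out, and 12 under 75th percentile scaling. The causes were not tested.

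Nitrate and control arrays share replicate numbers. Deviations of same-numbered arrays correlated between -0.14 and 0.18, so the numbers do not pair the samples, and only nitrate treated mouse 2 correlated best with its own number. With the replicate number as a block, which leaves out control 6, Sod3 differed by 0.25 (limma's adjusted P = 0.396) and was no longer called, Cat by 0.0186, 3 regulators were called, and 3074 of all probes were called against 3394.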
